A study of Mus musculus with 42 samples.

Results

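The genes of sterol and fatty acid synthesis were examined in mouse bone marrow-derived macrophages (BMDMs), from wild-type (WT) and Nur77-deficient (KO) mice. The 29 members were taken by gene symbol from a list that names the enzymes, regulators and 1 carrier of the pathway, and all 29 were found among the 21884 protein-coding genes measured. By role the members fell into 7 genes of the mevalonate arm (Acat2, Hmgcs1, Mvk, Pmvk, Mvd, Idi1 and Fdps), 11 of the squalene and sterol arm (Fdft1, Sqle, Lss, Cyp51, Tm7sf2, Msmo1, Nsdhl, Hsd17b7, Ebp, Sc5d and Dhcr7), 5 regulators (Srebf1, Srebf2, Scap, Insig1 and Insig2), 5 of fatty acid synthesis (Acaca, Fasn, Elovl6, Scd1 and Scd2) and the sterol carrier Stard4.

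BMDMs came from male C57Bl6/J mice, were differentiated in medium conditioned by L929 cells, and were left untreated (0 h) or given 100 ng/ml lipopolysaccharide (LPS), a bacterial cell wall component, for 1 or 18 h. Chromatin immunoprecipitation with sequencing (ChIP-seq) used antibodies against RNA polymerase II (Pol II), the enzyme that transcribes protein-coding genes, and against H3K27ac, the acetylated lysine 27 of histone H3 that is found at promoters and enhancers in use. Each genotype and time had 3 libraries per antibody and 1 input library without immunoprecipitation. The KO mice were described as whole-body knockouts, made by deleting loxP-flanked Nr4a1, the Nur77 gene, with a Cre recombinase driven by the CMV promoter that was then bred out, and WT littermates served as controls. The genotype label of the KO libraries names Cre only, so effects of Cre and of the deletion cannot be told apart from the labels. The libraries were called biological replicates, but no label ties one to an animal, so p-values measure the spread between these libraries.

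Cholesterol is built from acetyl-CoA through mevalonate, farnesyl pyrophosphate, squalene and lanosterol, and the same acetyl-CoA feeds fatty acid synthesis. When sterols are low, Scap carries the transcription factors encoded by Srebf1 and Srebf2 from the endoplasmic reticulum to the Golgi, where they are cut and freed to enter the nucleus, and Insig1 and Insig2 hold Scap back when sterols are plentiful. In promoters of the pathway the factors work with NF-Y, which binds the CCAAT box, and with Sp1, which binds GC boxes, and in macrophages the pathway is known to be adjusted after Toll-like receptor stimulation.

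The promoters show what the members share in sequence. RefSeq promoter entries of GRCm38.p6 were matched to 23 members; Fdft1, Fdps, Scd1, Scd2, Sqle and Stard4 had none, and Acaca was left out because its entry starts over 1000 bp from the gene start used here. In the 250 bases before the RefSeq start, the CCAAT box (CCAAT) was found in 18 of 22 members (81.8%), against 33.8% of 32851 promoters of the same length. The GC box (GGGCGG) was found in 16 (72.7%), against 32.7%. Both strands were searched for every motif. The sterol regulatory element TCACNCCAC was found only in Hmgcs1 (4.55% of members, 1.05% of promoters). Its looser form TCACNNCAC, which includes every match of the former, was found in Hmgcs1, Hsd17b7 and Msmo1 (13.6% and 3.11%). CACGTG, the E box, was found in Hsd17b7, Insig1 and Sc5d (13.6% and 6.02%). The Nur77 element AAAGGTCA was found in 0 of the 22 windows (1.34% of promoters), which says only that these letters are not in these windows. The stretches below are those of 6 members on which the Pol II results turn, read 5′ to 3′ on the strand of the gene, with the CCAAT box, the GC box and TCACNCCAC in capitals on either strand. They are chr8:64733625-64733654 (− strand) for Msmo1, chr13:8885536-8885565 (+) for Idi1, chr5:4104747-4104947 (−) for Cyp51, chr5:28071162-28071362 (+) for Insig1, chr15:82147019-82147180 (+) for Srebf2 and chr13:119690101-119690350 (+) for Hmgcs1, and only that of Hmgcs1 holds all 250 bases. Those of Msmo1 and Idi1 were cut to 30 bases around boxes. They lie before the RefSeq start but inside the annotated gene that sets the Pol II and H3K27ac windows. Those of Cyp51, Insig1 and Srebf2 end where the annotated gene begins. Boxes that lie outside the printed stretches were counted too, namely the CCAAT box of Cyp51 at -29 bases from the RefSeq start, that of Idi1 at -14, those of Msmo1 at -160 and -96, and the GC boxes of Srebf2 at -79, -52 and -34.
Msmo1: gcaGGGCGGgagtgGGGCGGaCCAATtacg
Idi1: cCCGCCCtagccttgcctccagctgATTGG
Cyp51: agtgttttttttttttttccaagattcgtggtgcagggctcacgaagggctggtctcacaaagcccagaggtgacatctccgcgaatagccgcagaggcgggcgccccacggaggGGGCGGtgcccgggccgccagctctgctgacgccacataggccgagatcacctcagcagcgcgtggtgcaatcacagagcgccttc
Insig1: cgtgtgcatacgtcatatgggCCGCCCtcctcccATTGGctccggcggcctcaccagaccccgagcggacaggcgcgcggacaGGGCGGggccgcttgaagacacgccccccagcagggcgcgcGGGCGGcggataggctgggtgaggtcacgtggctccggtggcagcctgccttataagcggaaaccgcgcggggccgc
Srebf2: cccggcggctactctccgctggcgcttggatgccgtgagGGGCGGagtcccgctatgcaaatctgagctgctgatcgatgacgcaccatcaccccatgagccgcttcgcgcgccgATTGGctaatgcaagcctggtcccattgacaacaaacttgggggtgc
Hmgcs1: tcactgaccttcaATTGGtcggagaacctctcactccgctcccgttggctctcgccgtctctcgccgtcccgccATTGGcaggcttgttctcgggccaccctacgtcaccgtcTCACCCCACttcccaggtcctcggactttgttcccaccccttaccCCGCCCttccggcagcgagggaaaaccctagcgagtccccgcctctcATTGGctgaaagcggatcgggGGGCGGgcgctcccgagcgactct

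The unit of all values is normalized tags, the sequenced fragments of a region scaled to 10000000 per library, summed over the enriched regions in a window. The Pol II window runs from 500 bp before to 500 bp past the gene, and the H3K27ac window covers 2500 bp on either side of its start. A 0 means that no region passed the search there. Changes are differences of log2(tags + 10) with the standard error (SE) of a linear model (limma) over the 18 libraries of an antibody, and a gene was called where its p, adjusted by Benjamini-Hochberg over all genes tested, was under 0.05. The log2 scale understates changes of low values.

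Depth was 21730524 to 36124602 tags for Pol II and 13505272 to 55367970 for H3K27ac, where the KO libraries of each time were deeper than the WT libraries of that time. The Pol II libraries of each group agreed closely (r across genes 0.988 to 0.993). Some H3K27ac libraries stood apart. The library labelled KO replicate 1 at 1 h had r of 0.943 and 0.944 with the other KO libraries at 1 h but 0.981 to 0.982 with the WT libraries at 1 h. The library labelled KO replicate 1 at 18 h had r of 0.948 with the other KO libraries at 18 h, 0.938 with KO replicates 2 and 3 at 1 h and 0.944 to 0.946 with WT at 18 h, whereas KO replicates 2 and 3 at 18 h had 0.982 to 0.986 with WT at 18 h. Whether the labels of these libraries are right could not be settled here. The H3K27ac comparisons of KO with WT and their interactions are given with all libraries and without KO replicate 1. The targeted gene Nr4a1 had Pol II tags of 189, 188 and 208 in WT at 0 h and 87.8, 76.1 and 70.2 in KO, without overlap (-1.22 on the log2 scale, adjusted p = 0.00012, limma). At 1 h they were 25.5, 23 and 30.4 in WT and 33.5, 39.0 and 36.6 in KO, where the KO values were the higher ones without overlap and the difference of 0.36 was not called (adjusted p = 0.089, limma). At 18 h they were 7.46, 5.98 and 0 in WT and 0 in every KO library. That difference of -0.49 was called by limma, but with regions in WT only it could be called lower only. Pol II over the gene thus sets the genotypes apart in the labelled direction at 0 h and not at 1 h. The call at 18 h cannot decide this. Its H3K27ac values at 0 h overlapped (68.5 to 85.5 in WT, 61.4 to 84.4 in KO). All 8 macrophage markers carried Pol II in every group, and the T cell, B cell and fibroblast markers Cd3e, Cd3g, Pax5, Col1a1, Col1a2 and Col3a1 were at 0, whereas Cd3d and Cd79a were not. In 5 members (Fdft1, Mvd, Tm7sf2, Mvk and Nsdhl) at least 90% of the Pol II tags lay in regions that reach another gene, Ctsb in the case of Fdft1, so their values cannot be told apart from those of the neighbour. In 14 members no Pol II region reached another gene.

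On mm10 (GENCODE vM21) the genes on which most results turn are Msmo1 at chr8:64718139-64733792 (− strand), Cyp51 at chr5:4081145-4104746 (−), Idi1 at chr13:8885501-8892451 (+), Insig1 at chr5:28071363-28078662 (+), Srebf2 at chr15:82147181-82205379 (+), Scap at chr9:110333288-110384950 (+), Hmgcs1 at chr13:119690379-119708260 (+), Sqle at chr15:59315077-59331192 (+) and Scd2 at chr19:44293674-44306864 (+). The Pol II window of each spans all of its exons and introns.

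Every member had Pol II regions in each WT library at 0 h. Per kb of gene window, the mean level in WT at 0 h ran from 0.506 ± 0.0923 tags (SD, n = 3) in Acaca, the acetyl-CoA carboxylase that commits carbon to fatty acids, whose input library held more tags than any Pol II library of WT at 0 h, to 63.8 ± 5.18 in Insig1 and 104.7 ± 5.48 in Fdft1, whose value comes with the Ctsb caveat above. Scd2, a stearoyl-CoA desaturase, stood at 44.15 ± 4.30 tags per kb (SD) and its paralog Scd1 at 1.42 ± 0.111, where its 18.8 to 22.0 tags were level with the 18.8 of the input library. Msmo1, the methylsterol monooxygenase that removes methyl groups after lanosterol, stood at 21.6 ± 1.69 tags per kb and Sqle, the squalene epoxidase, at 13.3 ± 1.38.

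KO and WT cells were first compared without LPS. Pol II at 0 h was called higher in 0 and lower in 0 of the 29 members by limma, where 4.24% and 2.73% of all genes were called higher and lower, and 3 of 29 members had an unadjusted p under 0.05, as did 2594 of 13219 genes. The median log2 difference of the members was 0.01, that of all genes 0.04. The differences of the members ran from -0.36 (Fdps) to 0.34 (Hmgcs1). H3K27ac at 0 h was likewise called higher in 0 and lower in 0 of 28 members tested (0.466% and 0.305% of all genes), with 1 member and 1196 of 11804 genes at an unadjusted p under 0.05. With KO replicate 1 left out, 0 were higher and 1, Hsd17b7, was lower (-0.50), against 3.58% and 1.53% of all genes.

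LPS for 1 h lowered Pol II over most of the pathway in WT cells. Of the 29 members, 23 were called lower and 3 higher, where 68.5% of all genes were called lower and 18.6% higher, so that a fall was the common outcome of any gene. Of the 23, Lss, Scd1 and Scd2 had no region in any WT library at 1 h, and Fdps had one in 1 library only. These genes entered the test through 0 h alone and could be called lower only. The median log2 change was -1.01 for the members and -0.82 for all genes. When each library was centred on its median gene, 11 members were lower and 6 higher, against 38.1% and 37.15% of all genes. Without the centring, all 11 genes of the squalene and sterol arm and all 5 of fatty acid synthesis were called lower. So were 5 of 7 of the mevalonate arm. Those lower after the centring were Cyp51, Dhcr7, Lss, Msmo1, Sqle, Acat2, Fdps, Acaca, Elovl6, Scd1 and Scd2. Acaca had fewer tags in every WT library than its inputs of 255.8 tags at 0 h and 343.5 at 1 h.

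Msmo1 had 328, 381 and 371.5 Pol II tags at 0 h in WT and 25.7, 19.1 and 42.1 at 1 h (log2 change -3.29 ± 0.17 SE, adjusted p = 8.1e-12, limma). The groups lay far apart, and the values at 1 h lay around the 28.9 tags of the input library. Sqle fell from 212, 217 and 255 tags to 18.6, 36.0 and 35.3 (-2.60 ± 0.18, adjusted p = 2.4e-10, limma), where its input library held 17.9. Cyp51, the lanosterol demethylase, had 82.7, 92.8 and 96.1 tags at 0 h and 26.3, 7.36 and 11 at 1 h (-2.08 ± 0.21, adjusted p = 6e-08, limma). For all 3 enzymes the highest value at 1 h was under the lowest at 0 h.

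The desaturase Scd2 had 559, 642 and 678 tags at 0 h and was listed at 0 in all 3 WT libraries at 1 h. Scd1 had 22.0, 18.8 and 20.7 tags at 0 h and was listed at 0 at 1 h and at 18 h, in both genotypes. Lss, the lanosterol synthase, was at 36.4, 45.5 and 54.1 tags at 0 h in WT and at 0 in every library of both genotypes at 1 h. These genes therefore passed below the region search at 1 h. A gene at 0 in every library of a later group entered that comparison through 0 h alone, so it could be called lower only. Dhcr7, which makes the last step to cholesterol, fell from 103, 94.7 and 106 tags to 10.8, 14.4 and 14.8 (-2.26 ± 0.13, adjusted p = 1.8e-11, limma). Its input library at 1 h held 20.6 tags, more than any Pol II library of WT at 1 h.

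Of the 5 regulators 2 rose, 1 fell and 2 were not called. Scap, the sterol-sensing escort, rose from 87.2, 113 and 94.2 tags at 0 h to 571, 555 and 607.5 at 1 h in WT (log2 change 2.45 ± 0.13 SE, adjusted p = 5.9e-12, limma). Srebf2, the main activator of cholesterol synthesis, rose from 194, 271 and 264.5 to 655, 565.5 and 685 (1.36 ± 0.12, adjusted p = 1.2e-08, limma). Hmgcs1, the synthase that makes HMG-CoA, was the other member that rose, from 167, 219 and 272 to 434, 435 and 462 (1.01 ± 0.13, adjusted p = 1.1e-06, limma). In each of these genes all values at 1 h lay above all values at 0 h. Within 500 bp of the start, a window that takes an even share of each region reaching it, the change was -0.015 for Srebf2 and -0.075 for Hmgcs1. Insig1 and Insig2 were not called in WT (0.04 ± 0.07 and -0.05 ± 0.10 on the log2 scale, adjusted p = 0.6 and 0.65, limma), and Srebf1 fell (-0.68 ± 0.09, adjusted p = 9e-07, limma).

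Pol II regions covered more of Srebf2 and Scap at 1 h than at 0 h. In WT, they covered 17.9% to 27.2% of the Srebf2 window at 0 h and 49.8% to 70.8% at 1 h. In KO the covered share of Srebf2 went from 16.98–25.4% to 84.3–89.9%. For Scap it went from 8.97–9.71% to 49.1–60.0% in WT and from 7.60–8.95% to 61.1–70.0% in KO, and regions that hold 45.1% of its tags reach Ptpn23. Hmgcs1 was covered over 57.9–87.7% at 0 h and 96.8–100% at 1 h in WT, with Nim1k reached by regions that hold 59.4% of its tags. Msmo1 went the opposite way, from 88.8–95.5% to 6.90–16.3% in WT and from 76.2–89.7% to 27–45.2% in KO. A sum over regions moves with the length that passed the search, and these shares give that length.

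**Figure D1:**
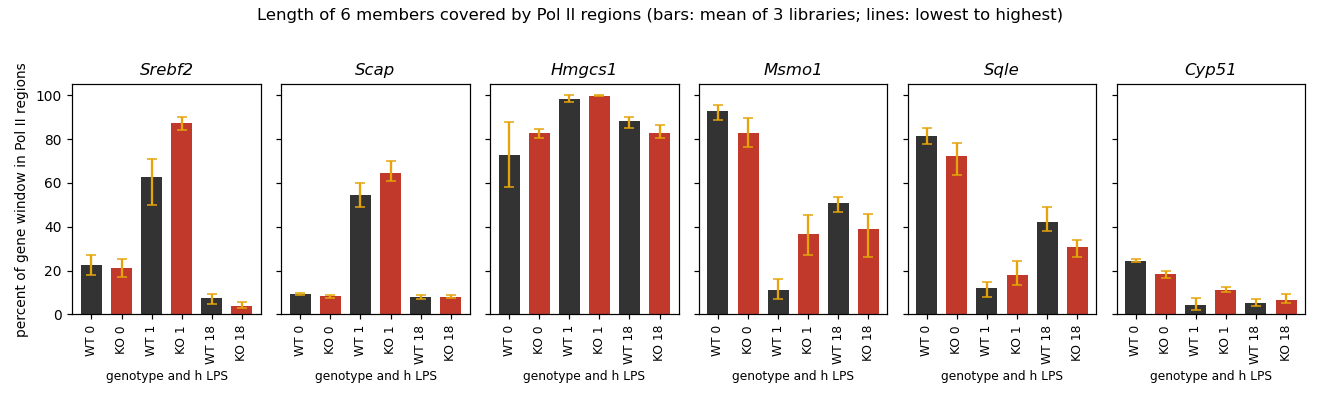
Percent of the gene window (vertical axis) lying in Pol II regions for Srebf2, Scap, Hmgcs1, Msmo1, Sqle and Cyp51 at 0, 1 and 18 h in WT and KO. Bars are means of 3 libraries and lines run from the lowest to the highest. Srebf2 and Scap are covered most at 1 h, Msmo1 and Sqle least, and at 1 h the KO bars stand above the WT bars in all 6 panels, by little for Hmgcs1.

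At 1 h of LPS Pol II was higher in KO than in WT over much of the pathway. Of 27 members tested, 16 were called higher and 0 lower, where 38.3% of all genes were called higher and 7.48% lower. Of the 16, Fdps and Scd2 had regions in fewer than 2 WT libraries at 1 h and entered the test through KO alone, so that they could be called in that direction only. The median log2 difference was 0.47 for the members and 0.24 for all genes. After each library was centred on its median gene, 8 members remained higher (Cyp51, Hmgcs1, Idi1, Insig1, Insig2, Msmo1, Srebf2 and Stard4) and Tm7sf2 was lower, with 15.6% of all genes higher and 21.5% lower. By role the calls were 4 of 7 in the mevalonate arm, 5 of 10 tested in the squalene and sterol arm, 4 of 5 regulators, 2 of 4 tested in fatty acid synthesis, and Stard4. Of those of fatty acid synthesis, Elovl6 turned to -1.11 with input subtracted, and Scd2 had fewer tags in every library than the input of its group. Of the 14 members with no region reaching another gene, 8 of 12 tested were called higher.

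Msmo1 differed most. Its Pol II tags at 1 h were 25.7, 19.1 and 42.1 in WT and 112, 75.4 and 98.3 in KO (log2 difference 1.46 ± 0.17 SE, adjusted p = 6.5e-06, limma). All KO values lay above all WT values, and the input libraries gave 28.9 tags in WT and 28.99 in KO. Cyp51 had 26.3, 7.36 and 11 tags in WT and 46.4, 41.7 and 56.3 in KO (1.29 ± 0.21, adjusted p = 0.00016, limma), also without overlap. The sterol carrier Stard4 had 21.6, 20.5 and 30.7 tags in WT and 52.4, 59.5 and 73.6 in KO (1.07 ± 0.19, adjusted p = 0.00027, limma). The groups were again separate, with inputs of 13.2 tags in WT and 10.6 in KO.

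Within the mevalonate arm Idi1, the isomerase of isopentenyl pyrophosphate, had 34.8, 17.7 and 28.3 tags in WT and 52.8, 58.5 and 37.5 in KO (0.70 ± 0.18, adjusted p = 0.0046, limma). The groups did not overlap, but the WT values sat around the input of 26.5 tags. Fdps, the farnesyl pyrophosphate synthase, was at 6.36 tags in 1 WT library, at 0 in the other two, and at 7.81, 12.5 and 7.65 in KO, the group through which alone it entered the test. Its KO input library held 15.3 tags, more than any of these, and its WT input 0. Hmgcs1 carried far more Pol II, with 434, 435 and 462 tags in WT and 695, 694 and 706 in KO (0.64 ± 0.13, adjusted p = 0.00081, limma). No Hmgcs1 value of KO came near those of WT.

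Among the regulators Insig1 had 544, 530.2 and 552 tags in WT at 1 h and 896, 853 and 832 in KO (0.66 ± 0.07, adjusted p = 1e-06, limma). Insig2 had 179.8, 157 and 133 in WT and 246, 244 and 256 in KO (0.64 ± 0.10, adjusted p = 1e-04, limma). Srebf2 had 655, 565.5 and 685 in WT and 943, 931 and 921 in KO (0.55 ± 0.12, adjusted p = 0.0018, limma). These 3 genes were separate between the genotypes in every library. Srebf1 was higher in KO by a log2 difference of 0.40 ± 0.09 (adjusted p = 0.0015, limma). Scap rose with LPS in both genotypes and differed between them by 0.28 ± 0.13, which was not called (adjusted p = 0.084, limma). In fatty acid synthesis Fasn, the synthase itself, had 92.4, 87.0 and 91.6 tags in WT and 92.5, 101 and 88.8 in KO, with overlapping values, and its difference of 0.05 ± 0.12 was not called (adjusted p = 0.74, limma).

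The remaining enzymes carried less Pol II or differed less at 1 h. Acat2, a thiolase that joins acetyl-CoA units, had 24.8, 19.8 and 21.6 tags in WT and 30.4, 36.5 and 37.1 in KO (0.48 ± 0.14, adjusted p = 0.012, limma). Nsdhl, a sterol dehydrogenase that acts with Msmo1, had 10.3, 6.67 and 8.23 in WT and 14.1, 14.4 and 17.9 in KO (0.47 ± 0.14, adjusted p = 0.013, limma), and at least 90% of its tags lie in regions that reach another gene. Neither gene overlapped between the genotypes. Dhcr7 had 10.8, 14.4 and 14.8 tags in WT and 19.5, 20.8 and 15.2 in KO, which was not called (adjusted p = 0.071, limma) although the groups did not overlap. Its inputs held 20.6 tags in WT and 5.1 in KO. Sqle had 18.6, 36.0 and 35.3 in WT and 39.6, 58.7 and 51.2 in KO (0.60 ± 0.18, adjusted p = 0.011, limma), with inputs of 17.9 tags in WT and 21 in KO. Hsd17b7, Ebp, Sc5d, Pmvk, Mvd and Tm7sf2 overlapped between the genotypes and were not called, and neither were Mvk and Acaca, whose groups did not overlap. The differences of these 8 genes ran from -0.12 in Tm7sf2 to 0.47 in Sc5d and Mvd.

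**Figure D2:**
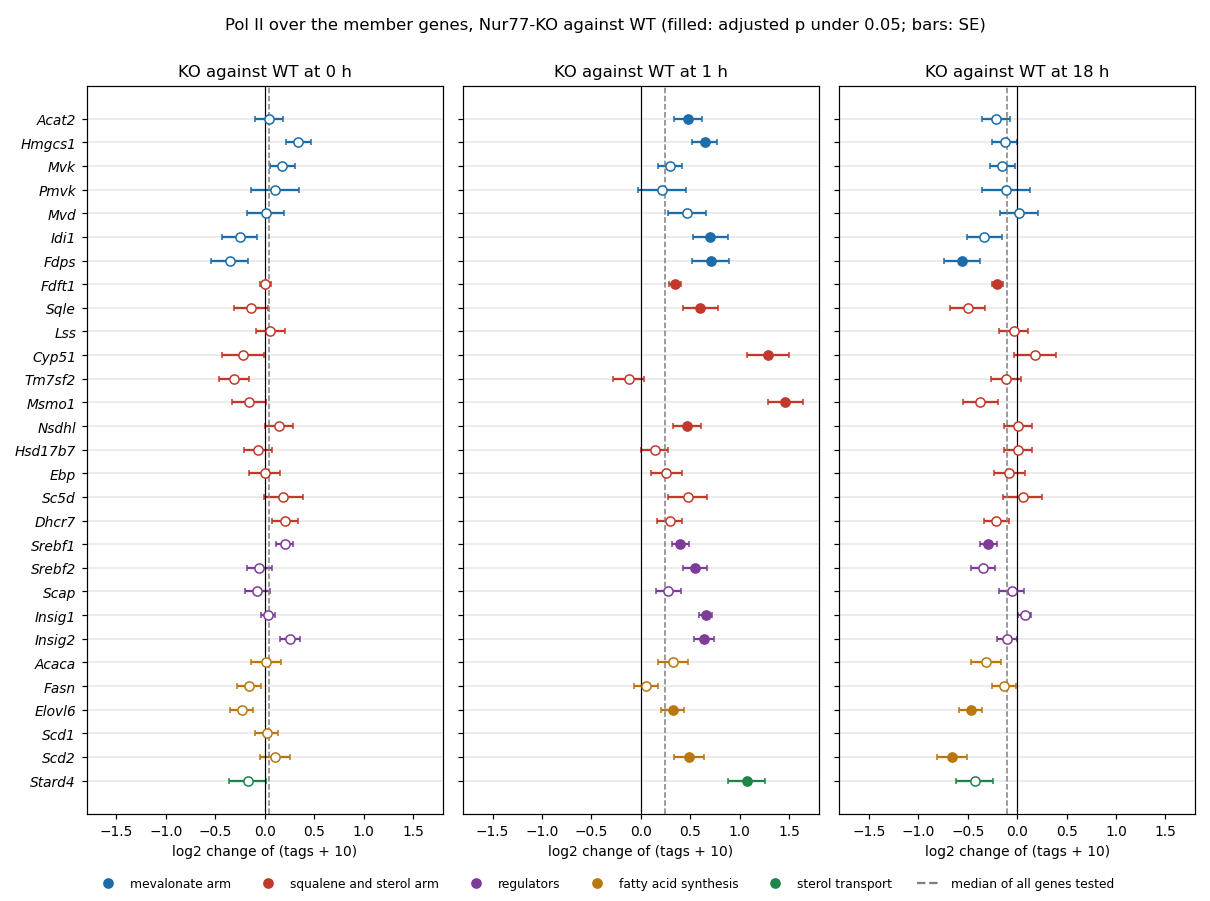
Log2 difference of Pol II tags (+10), KO against WT, for each member at 0, 1 and 18 h, in 3 panels. Points are limma estimates with SE bars, coloured by role, filled where called, and the dashed line is the median of all genes tested. At 1 h 16 points are filled, all to the right of 0, with Msmo1, Cyp51 and Stard4 farthest out; at 0 h none is filled and at 18 h 5 are, all to the left.

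**Figure D3:**
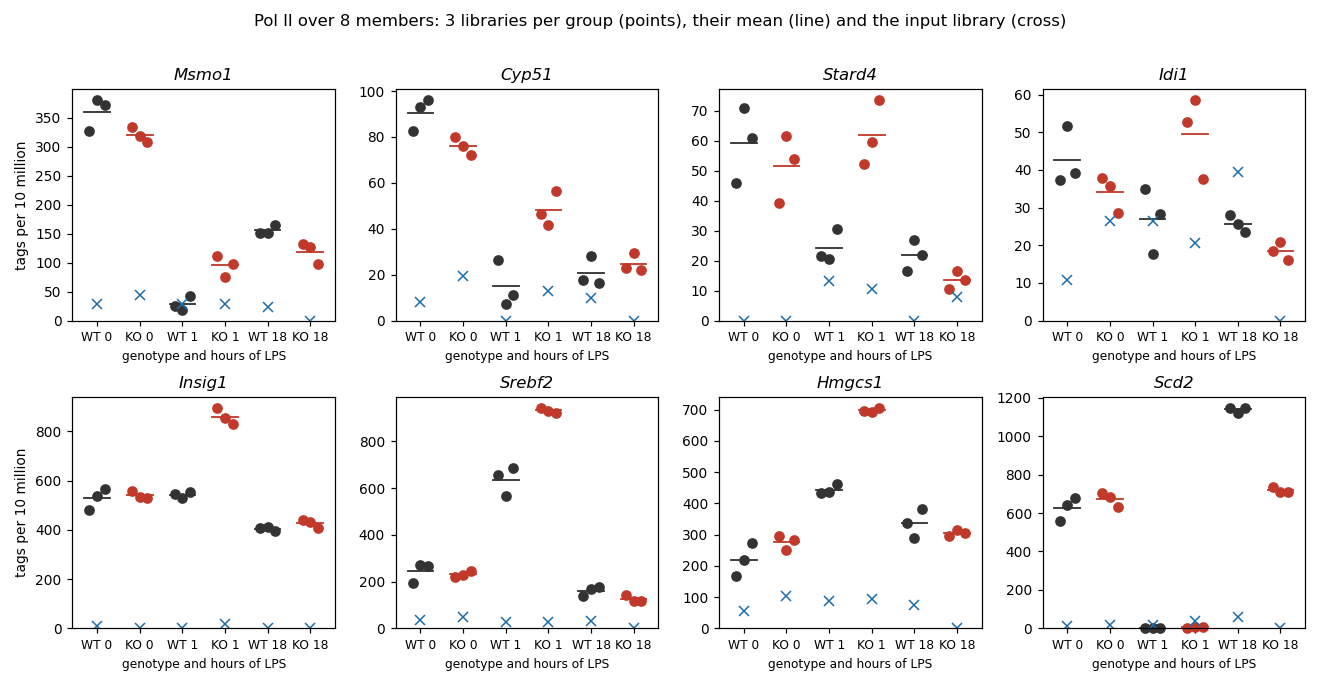
Pol II normalized tags (vertical axis) of Msmo1, Cyp51, Stard4, Idi1, Insig1, Srebf2, Hmgcs1 and Scd2 in WT and KO at 0, 1 and 18 h. Points are the 3 libraries of a group, the line their mean and the cross the input library of that group. At 1 h the KO points lie above the WT points for Msmo1, Cyp51, Stard4, Idi1, Insig1, Srebf2 and Hmgcs1, while Scd2 is at or near 0.

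Of the 16 calls at 1 h, 8 (Cyp51, Fdft1, Hmgcs1, Insig1, Insig2, Msmo1, Srebf1 and Stard4) held whichever replicate was left out, and the number of members called fell to 8 without replicate 2 of both genotypes. Other gene groups moved at 1 h too. The summed Pol II tags of the 8 macrophage markers were 33663 to 35673.5 in WT and 24847 to 25538 in KO. Those of 5 LPS response genes were 32437 to 34414 in WT and 26073 to 30667.5 in KO. Adgre1 alone had a mean of 22420 tags in WT and 13170 in KO, and of the 8 macrophage markers 4 were called lower in KO and 1, Csf1r, higher. Of the LPS response genes 3 of 5 were called lower. The 6 markers of neutrophils and their precursors summed to 0 to 8.10 tags in WT, all in Camp, and 8.62 to 17 in KO, all in S100a8, and Ly6g, Mpo, Elane and S100a9 were at 0. The 3 T cell markers summed to 23.1 to 27.4 tags in WT and 30.4 to 41.8 in KO, all in Cd3d, with Cd3e and Cd3g at 0. Some of these groups differed already at 0 h. Of the LPS response genes 4 of 4 tested were then called lower in KO, with sums of 2576 to 2828 tags in WT and 1929 to 2278 in KO. The neutrophil and precursor markers summed to 15.9 to 22.6 Pol II tags in WT and 39.3 to 45.3 in KO. Their H3K27ac sums at 0 h were 72.35 to 86.4 and 161.8 to 178.9. The macrophage sums overlapped at 0 h (22547 to 26633 and 25432 to 27384.5). The part of these groups in the member results was not tested.

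The interaction asks whether LPS changed a gene differently in KO and WT, as the change from 0 h in KO less the change from 0 h in WT. It shares its 1 h libraries with the comparison above. At 1 h it was positive and called for 10 of 29 members and negative and called for 0, where 14.2% of all genes had a called positive and 4.23% a called negative interaction. The median was 0.34 for the members and 0.17 for all genes, and 6 positive calls remained after median centring, where 6.64% of all genes had a positive and 13.2% a negative call. In the start window 1 member was called, Insig1. Of the 14 members with no region reaching another gene, 5 were called. Msmo1 fell with LPS by 3.29 on the log2 scale in WT and by 1.67 in KO (interaction 1.62 ± 0.25 SE, adjusted p = 0.00029, limma). Cyp51 fell by 2.08 and by 0.57 (interaction 1.51 ± 0.30, adjusted p = 0.0024, limma). After median centring the KO fall of Cyp51 was gone, at 0.0004.

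Stard4 fell by 1.01 in WT and had a change of 0.23 ± 0.19 in KO that was not called (interaction 1.24 ± 0.27, adjusted p = 0.0041, limma). In KO its tags were 39.3, 61.5 and 54.0 at 0 h and 52.4, 59.5 and 73.6 at 1 h, with overlap. Idi1 fell by 0.53 in WT and rose by 0.43 in KO, from 37.9, 35.6 and 28.6 tags to 52.8, 58.5 and 37.5 (interaction 0.96 ± 0.25, adjusted p = 0.015, limma). These KO values of Idi1 overlapped. Insig1 did not change in WT beyond the test (0.04) and rose in KO by 0.66 ± 0.07, from 559.7, 533 and 531 tags to 896, 853 and 832 (interaction 0.62 ± 0.09, adjusted p = 0.00027, limma). Every KO library of Insig1 at 1 h lay above every other Insig1 library. Srebf2 rose by 1.36 in WT and by 1.963 in KO (interaction 0.60 ± 0.17, adjusted p = 0.023, limma), but in the start window the interaction was -0.10.

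The other positive interactions were those of Fdps (1.06 ± 0.26), Sqle (0.74 ± 0.25), the fatty acid elongase Elovl6 (0.56 ± 0.16) and Fdft1 (0.34 ± 0.08). For Elovl6 the inputs at 1 h held 10.7 tags in WT and 49.3 in KO, and with input subtracted the interaction was -0.98. Lss and Scd1 were at 0 in all libraries at 1 h, so the depth of their falls beyond the region search could not be compared. For Hmgcs1 the LPS rise was 1.01 in WT and 1.31 in KO and the interaction of 0.30 ± 0.18 was not called (adjusted p = 0.26, limma). Insig1 and Msmo1 were the interaction calls that held whichever replicate was left out. Without replicate 3 of both genotypes 2 members were called, without replicate 2 of both 3, and without KO replicate 2 alone 5.

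**Figure D4:**
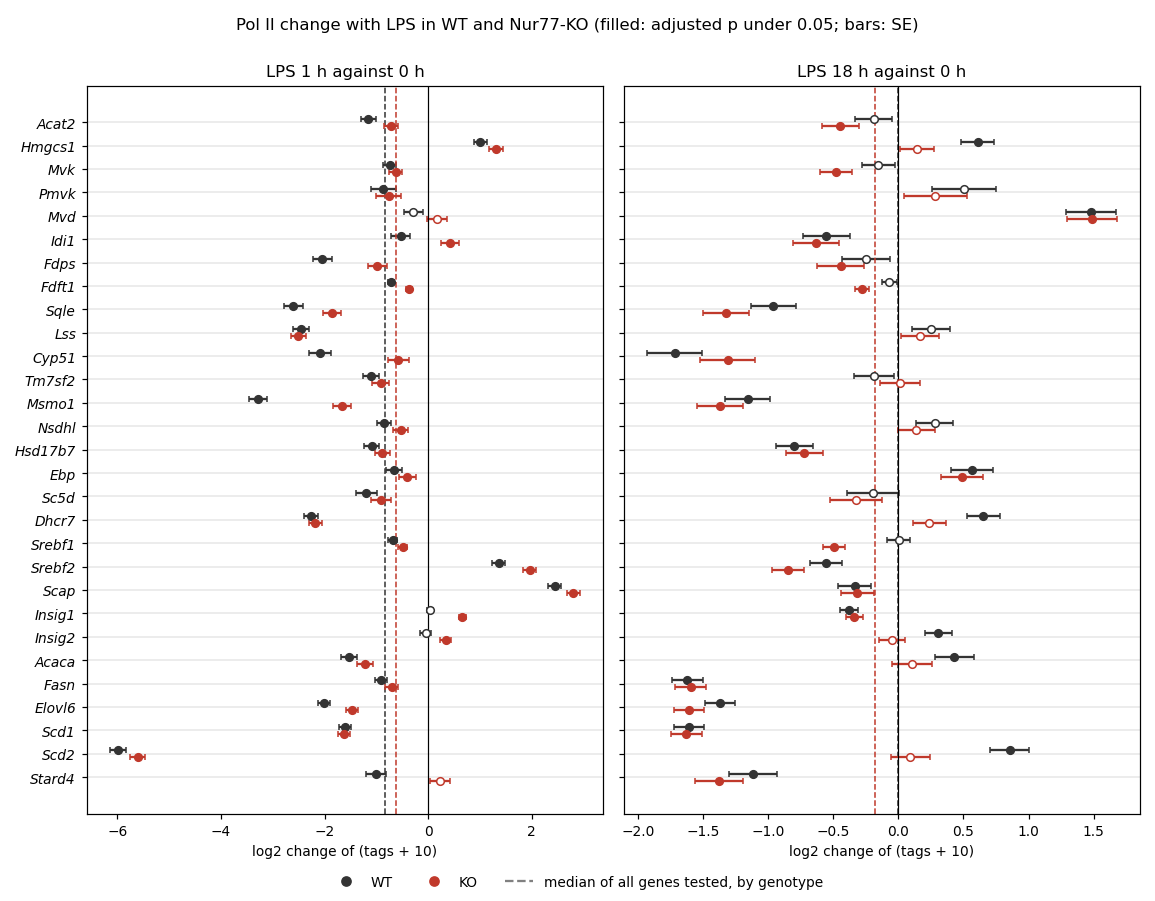
LPS change of Pol II (horizontal axis, log2 difference from 0 h) for each of the 29 members, at 1 h and at 18 h in separate panels. Points are limma estimates with SE bars, dark for WT and red for KO, filled where called. Dashed lines are the medians of all genes tested, by genotype. At 1 h the KO points of Msmo1, Cyp51, Stard4, Fdps and Idi1 lie to the right of their WT points. Scd2 has the deepest fall at 1 h in both genotypes.

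In KO cells, LPS for 1 h lowered Pol II in 21 members and raised it in 6 (62.2% and 20.6% of all genes). After median centring 9 were lower and 9 higher (38.4% and 36.3%). The uncentred changes had a median of -0.71 for the members and -0.62 for all genes. Those raised were Hmgcs1, Idi1, Insig1, Insig2, Scap and Srebf2. The KO and WT comparisons with 0 h use separate control libraries. Scap rose most, to 723, 688 and 694 tags from 106, 75.6 and 97.2 (log2 change 2.80 ± 0.13 SE, adjusted p = 1e-12, limma).

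After 18 h of LPS in WT cells, Pol II was called higher than at 0 h in 7 of 29 members and lower in 12, where 33.3% of all genes were called higher and 33.3% lower, so that changes in either direction were common among all genes. Those higher were Acaca, Dhcr7, Ebp, Hmgcs1, Insig2, Mvd and Scd2. For Acaca the 169, 216 and 182 tags at 18 h lay below the 559.6 of the input library, which held 255.8 at 0 h. Scd2 had 559, 642 and 678 tags at 0 h, none at 1 h, and 1146, 1123 and 1148 at 18 h (18 h against 0 h: 0.86 ± 0.15 SE, adjusted p = 7.7e-05, limma). Dhcr7 reached 179, 142 and 177 tags, above all its values at 0 h (0.65 ± 0.13, adjusted p = 0.00022, limma). Those lower included Fasn, with 175, 205 and 159.8 tags at 0 h and 54.4, 53.9 and 46.5 at 18 h (-1.62 ± 0.12, adjusted p = 1.5e-09, limma). Elovl6 fell by 1.37, Cyp51 by 1.72, Stard4 by 1.12 and Msmo1 by 1.16 on the log2 scale, where the start window gave 0.16 for Msmo1. Srebf2, high at 1 h, was down to 139, 168 and 177 tags (-0.55 ± 0.12, adjusted p = 0.00071, limma). Insig1 fell in WT by 0.38 and in KO by 0.34.

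In KO cells at 18 h, 2 members were called higher than at 0 h and 17 lower (28.1% and 42.2% of all genes). These were Ebp, the sterol isomerase, and Mvd, at least 90% of whose tags lie in regions that reach another gene. Fasn, Elovl6, Scd1, Stard4, Msmo1, Cyp51 and Sqle had falls of over 1 on the log2 scale, where the start window gave 0.22 for Msmo1.

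KO and WT were compared again at 18 h. Pol II was called higher in KO in 0 of 28 members tested and lower in 5, where 7.58% of all genes were called higher and 13.5% lower, and the median difference was -0.14 for the members and -0.10 for all genes. After median centring Insig1 was higher (0.21) and Scd2 lower (-0.52), and no other member was called, against 15.4% and 7.77% of all genes. Scd2 had 1146, 1123 and 1148 tags in WT and 737, 709.8 and 708.5 in KO (-0.66 ± 0.15, adjusted p = 0.0045, limma), without overlap. Srebf1, the activator of fatty acid synthesis genes, had 546, 541 and 552 tags in WT and 449, 481 and 404 in KO (-0.29 ± 0.09, adjusted p = 0.021, limma), also without overlap. Elovl6 (-0.47), Fdps (-0.55) and Fdft1 (-0.20) were the other calls, and the inputs held 60.3 tags in WT and 0 in KO for Elovl6 and 21.9 and 0 for Fdps. With input subtracted these differences were 1.202 for Elovl6 and 0.57 for Fdps. Insig1 had 406, 412 and 394 tags in WT and 439, 430.2 and 409.7 in KO, with overlap, and was not called without the centring.

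The interaction at 18 h was called for 0 members in the positive and 2 in the negative direction (4.86% and 9.94% of all genes). Scd2 rose with LPS by 0.86 in WT and had a change of 0.09 ± 0.15 in KO that was not called (interaction -0.76 ± 0.21, adjusted p = 0.022, limma). Srebf1 had 509, 604 and 528 tags at 0 h in WT and changed by 0.00 at 18 h, and in KO fell by 0.50 from 651, 568 and 675 tags (interaction -0.50 ± 0.12, adjusted p = 0.01, limma). None of the calls of KO against WT at 18 h or of this interaction held under every left-out replicate: between 1 and 3 members were called for the former, lowest without KO replicate 1, and between 0 and 2 for the latter, 0 without replicate 3 of both genotypes. The macrophage markers summed to 46316 to 48879.5 Pol II tags in WT at 18 h and 39410 to 42597 in KO. The LPS response genes summed to 5519 to 5635 in WT and 6410 to 7529 in KO, with 4 of 5 called higher in KO. Their part in these differences was not tested. The KO input at 18 h held fewer regions than the others, so most members had an input of 0 there.

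H3K27ac was measured around the start of the same genes, where 28 members had a value and Pmvk was listed at 0 in every library. In WT cells 1 h of LPS raised it in 4 members and lowered it in 9, where 25.3% of all genes were called higher and 29.4% lower. Those raised were Scap, Srebf2, Hmgcs1 and Fdft1. Scd1, among those lowered, had 0 tags in every WT library at 1 h and so entered through 0 h alone. Scap had 44.6, 30.2 and 39.3 tags at 0 h and 107, 109.8 and 115 at 1 h (log2 change 1.34 ± 0.22 SE, adjusted p = 9.1e-05, limma). Srebf2 went from 349.7, 367 and 381 tags to 600.1, 620.3 and 655.5 (0.76 ± 0.07, adjusted p = 3.7e-07, limma). For both the values at 1 h lay above all those at 0 h. Msmo1 fell from 259, 251 and 236 tags to 49.2, 71.7 and 67.8 (-1.84 ± 0.20, adjusted p = 1.9e-06, limma), and Scd2 from 218, 224 and 231 to 70.7, 60.6 and 63.7 (-1.65 ± 0.27, adjusted p = 9.3e-05, limma).

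At 18 h in WT 3 members were called higher and 13 lower (23.5% and 26.5% of all genes). Scd1, among those lower at 18 h in both genotypes, had a region in 1 WT library and in no KO library. It thus entered through 0 h alone. Insig2 fell by 1.30, Msmo1 by 1.21, Cyp51 by 1.09 and Elovl6 by 0.84, while Scd2 rose to 391.7, 345 and 354 tags (0.67 ± 0.27, adjusted p = 0.049, limma). In KO cells 7 members were called higher and 6 lower at 1 h (20.4% and 26.6% of all genes), and 0 higher and 16 lower at 18 h (18.4% and 34.2%). Without KO replicate 1 there were 15 higher and 5 lower at 1 h (28.4% and 29.8% of all genes) and 0 higher and 19 lower at 18 h (20.6% and 44.2%). That setting also narrowed the spread shared by all groups, so that in WT 6 members were higher and 16 lower at 1 h (32.2% and 37.8%).

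KO and WT were then compared for H3K27ac at 1 h. With all libraries 13 of 28 members were called higher in KO and 0 lower, where 11.1% of all genes were called higher and 7.42% lower, and the median difference was 0.40 for the members and 0.05 for all genes. Without KO replicate 1 there were 20 higher and 1 lower, against 34.7% and 23.8% of all genes, and the lower one was Elovl6 (-0.47). Without KO replicate 2 there were 2 higher and 0 lower (0.912% and 1.33% of all genes), and without KO replicate 3 also 2 and 0 (1.10% and 1.40%). With KO replicate 1 as the only KO library, a setting chosen after seeing the data in which that library is assumed to vary like those of the other groups, 2 were higher (Insig1 and Hmgcs1) and 1 lower (Hsd17b7), against 2.6% and 3.34% of all genes. The calls thus fell away over all genes in these settings. No call of the 13 held under every left-out replicate. Of the 29 members 12 lay above all WT libraries in KO replicate 1, 24 in replicate 2 and 23 in replicate 3.

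In Insig1 and Hmgcs1 the KO libraries stayed together. The H3K27ac tags of Insig1 at 1 h were 353, 382.5 and 386 in WT and 531, 506 and 497 in KO (0.44 ± 0.08, adjusted p = 0.0028, limma). The difference was 0.41 without KO replicate 1 and 0.50 with that library alone. Hmgcs1 had 254, 276 and 251 tags in WT and 348, 361 and 302 in KO (0.36 ± 0.10, adjusted p = 0.025, limma). Both were without overlap in all libraries.

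In other members KO replicate 1 stood by the WT libraries. Fdps had 92.6, 105.2 and 111 tags in WT and 102, 241 and 231 in KO, so that its difference was 1.13 without KO replicate 1 and -0.01 with that library alone. Scd2 had 70.7, 60.6 and 63.7 in WT and 66.3, 217 and 145 in KO. Msmo1 had 49.2, 71.7 and 67.8 in WT and 96.5, 205 and 167.5 in KO (1.14 ± 0.20, adjusted p = 0.0027, limma), where even the lowest KO value lay above WT, and its difference was 1.44 without KO replicate 1 and 0.56 with it alone. Cyp51 had 104.4, 103 and 110.4 in WT and 115, 189.5 and 222 in KO, Stard4 128, 168 and 149 in WT and 174, 229 and 239.7 in KO, and Sqle 121, 116 and 123 in WT and 139, 224 and 221 in KO. In each of these 3 genes replicate 1 was the lowest KO library. Lss had 18.1, 11.8 and 11.5 in WT and 23.1, 45.4 and 54.6 in KO (1.06 ± 0.29, adjusted p = 0.024, limma), while its Pol II was listed at 0 in both groups. Mvd, Dhcr7 and Tm7sf2 were also called higher, with KO replicate 1 inside the range of the WT libraries (Mvd 150.1 against 117 to 166, Dhcr7 82.3 against 64 to 83.4, Tm7sf2 32.8 against 28.5 to 36.7). Regions that also reach another gene held 100% of the H3K27ac tags of Mvd (Gm20388) and Tm7sf2 (Vps51), 99.9% of those of Dhcr7 (Nadsyn1) and 90.9% of those of Fdps (Gm43738), so these 4 of the 13 calls cannot be told apart from the neighbour, and the other 9 were in members with no such region. Srebf2 overlapped between the genotypes, with 600.1, 620.3 and 655.5 tags in WT and 618, 682 and 636.5 in KO, and was not called (0.04 ± 0.07, adjusted p = 0.67, limma). The neutrophil and precursor markers summed to 59.6 to 70.4 H3K27ac tags in WT at 1 h and 105.4 to 124 in KO, with Ly6g, Mpo and S100a9 at 0. The 5 LPS response genes summed to 3234 to 3532 in WT and 1967 to 3126 in KO, and 1 was called lower in KO. The 8 macrophage markers summed to 5273 to 5645 in WT and 5599 to 6321 in KO, with overlap, and 3 were called higher in KO. Their part in these differences was not tested.

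**Figure D5:**
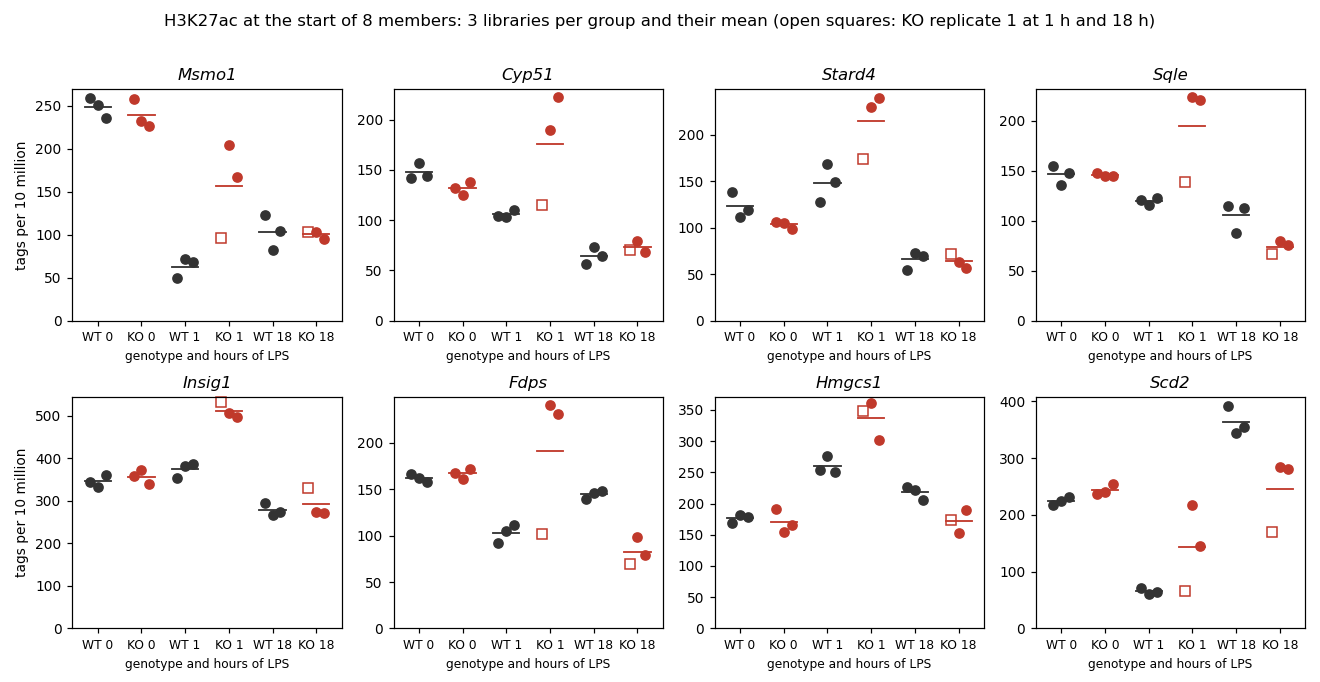
H3K27ac normalized tags (vertical axis) within 2500 bp of the gene start for Msmo1, Cyp51, Stard4, Sqle, Insig1, Fdps, Hmgcs1 and Scd2 in WT and KO at 0, 1 and 18 h. Points are single libraries, lines group means, and open squares mark KO replicate 1 at 1 h and 18 h. For Fdps and Scd2 the open square at 1 h lies at the level of WT, while for Insig1 all KO points at 1 h lie above WT.

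For H3K27ac the interaction at 1 h was called for 0 members in either direction by limma (0.115% of all genes positive, 0.453% negative), with 9 of 28 members and 2494 of 12141 genes at an unadjusted p under 0.05 and a median of 0.35 against -0.02 for all genes. Without KO replicate 1 it was called positive for 16 of 28 members, against 23.3% of all genes, among them Fdps (1.09), Msmo1 (1.54), Scd2 (1.19) and Cyp51 (1.04). At 18 h KO against WT was called higher for 0 and lower for 1 of 27 members (0.952% and 2.3% of all genes). That member was Srebf1, with 506, 498 and 488 tags in WT and 334, 440.2 and 388 in KO (-0.36 ± 0.09, adjusted p = 0.031, limma), without overlap. Without KO replicate 1 there were 8 lower (13.3% of all genes), without KO replicate 2 there were 4 (3.15%), without KO replicate 3 there were 0 (1.41%), and with KO replicate 1 alone, whose spread is taken from the other groups, 5 were higher and 9 lower (27.04% and 20.2%). The interaction at 18 h was called for 0 members in either direction (0.166% and 0.465% of all genes), with 4 of 28 members and 1572 of 12054 genes at an unadjusted p under 0.05. When KO replicate 1 was left out it was negative for 3, Fasn, Fdps and Srebf1 (8.21% of all genes), and with KO replicate 1 alone for 6 (15.3%).

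With all libraries, both antibodies called 9 of 26 members tested in both higher in KO at 1 h, namely Acat2, Cyp51, Fdps, Hmgcs1, Insig1, Msmo1, Scd2, Sqle and Stard4, where 6.98% of all genes tested in both were higher with both. Without KO replicate 1 in H3K27ac there were 12, against 16.5% of all genes. Fdps and Scd2 are among the 9 although their Pol II entered the test through KO alone. None of these H3K27ac calls held under every left-out replicate, and Scd2 had 0, 4.95 and 8.41 Pol II tags in KO, with an input of 36.2, and 0 in every WT library. At 18 h Srebf1 was lower with both (1.23% of all genes), and Fdps joined it without KO replicate 1 (5.33%). After 1 h of LPS in WT, Hmgcs1, Scap and Srebf2 were higher with both, 7 members were lower with both (14.3% and 27.5% of all genes), and Fdft1 had more H3K27ac and less Pol II. Fdps, Scd1 and Scd2 are among the 7 although their Pol II entered that test through 0 h alone. After 18 h in KO 13 members were lower with both antibodies and 0 higher (25.3% and 13.9% of all genes). Scd1 is among the 13 and had no region in KO at 18 h with either antibody.

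Genes around the pathway were read from 2 further lists. Of 13 genes of sterol sensing and SREBP processing, Pol II at 1 h was called higher in KO in 7 and lower in 1, where 38.3% of all genes were higher and 7.48% lower. The 7 included Npc1, which exports cholesterol from lysosomes (0.57), the protease Mbtps2 (0.51) and Nfyc, a subunit of NF-Y (0.48). Soat1, which esterifies cholesterol, was also called, with 107.2, 84.8 and 135.1 tags in WT and 190.8, 168.4 and 174.7 in KO, but all lay below the inputs of 224.9 tags in WT and 209.5 in KO. Ch25h, the cholesterol 25-hydroxylase that makes an inhibitor of SREBP processing, was the lower one, with 32.6, 27 and 17.3 tags in WT and 4.94, 13.8 and 2.08 in KO at 1 h (-1.11, adjusted p = 0.00027, limma). At 18 h Ch25h was listed at 0 in every WT library and had 47.1, 47.4 and 50.7 tags in KO. Of 16 further genes of lipid synthesis, 14 were tested at 1 h, where 5 were called higher in KO and 1 lower, against the same shares of all genes. Among those tested, Fads1 and Me1 had regions in 1 WT library at 1 h. They entered through KO alone and could be called higher only. The elongase Elovl5 was among the higher ones, with at most 17.3 tags in WT and 44.3 in KO and inputs of 34.6 and 54.2. Acss2, which makes acetyl-CoA from acetate, was the lower one, with at most 83.5 tags in WT and 54.1 in KO and inputs of 219.4 and 205.2. Both genes thus lay below their inputs. At 18 h 1 gene of sterol sensing, Ch25h, was called higher in KO and 0 lower, and of the 16 further genes 0 were higher and 2, Fads2 and Mid1ip1, lower, against 7.58% and 13.5% of all genes. Fads2 was then listed at 0 in every KO library, with 47.1, 26.2 and 25.9 tags in WT. At 18 h Ch25h thus entered the test through KO alone and Fads2 through WT alone, so each could be called in that direction only.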

How the data were processed

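Pol II and H3K27ac ChIP-seq libraries (36, with 18 per antibody) and 6 inputs from WT and KO BMDMs were grouped by their sample titles. The authors used Skewer for trimming, HISAT2 2.1.0 for alignment to mm10 and HOMER for the search of enriched regions in each library, after duplicate removal and with no input in the search. Per the file headers, the search used 500 bp windows, a Poisson p of 0.001 and stitching within 1000 bp. The deposited signal of a region is its tags scaled to 10000000 per library. Whole reads were not recovered, and no counting intervals were computed; the number of libraries limits the precision.

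Region tags were spread evenly and summed over gene windows (GENCODE vM21, GRCm38; 54 genes with duplicate symbols left out), so a start window inside a long region is not independent of the gene value. limma 3.58.1 in R 4.3.3 was fitted to log2(tags + 10) with 6 group means and an intensity trend, and checked on simulated data. Genes entered a comparison if above 0 in 2 or more libraries of 1 of its groups. Python 3.11.15, pandas 2.3.3, numpy 2.4.6 and matplotlib 3.10.9 were also used. Alternatives were other windows, pseudocounts (1, 50), filters, centring, quantile normalization, input subtraction, a common density floor, a replicate block, no trend and left-out replicates. Values are named for the members, for Nr4a1 and for called genes of the further lists, with full statistics mainly for called members whose groups did not overlap. The members, lists and tests were chosen with earlier results of these data known.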

Additional observations from a re-analysis of the deposited data

Results flagged for a closer look

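For 12 members the Pol II response to LPS differed between KO and WT by a test of the difference itself (limma interaction, adjusted p under 0.05 over all genes). At 1 h the LPS change was more positive in KO for 10 members, by a log2 difference of 1.62 for Msmo1, 1.51 for Cyp51, 1.24 for Stard4, 1.06 for Fdps, 0.96 for Idi1, 0.74 for Sqle, 0.62 for Insig1, 0.60 for Srebf2, 0.56 for Elovl6 and 0.34 for Fdft1. At 18 h it was more negative in KO for Scd2 (-0.76) and Srebf1 (-0.50), where 9.94% of all genes had a called negative interaction, and neither call held under every left-out replicate. Fdps and Elovl6 rest on values near or below those of an input library, the WT values of Msmo1 and Idi1 at 1 h lay around that of the input library, and Fdft1 on regions that reach Ctsb. At 1 h 14.2% of all genes had a called positive interaction, 6 of the 10 members remained called after median centring and 1, Insig1, in the window around the start, and the calls of Insig1 and Msmo1 held whichever replicate was left out. With input subtracted the value of Elovl6 was -0.98. The causes of these differences were not tested.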

How the results depend on the processing

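The counts are members called in either direction, out of 29 for Pol II and 28 for H3K27ac at most, and the cause of a shift was not tested. For Pol II in KO against WT at 0 h (0 members), the start window and the gene body each gave 1 and input subtraction 2. At 1 h (16 members), the gene body gave 10, median centring 9 and quantile normalization 10. At 18 h (5 members), the start window gave 2, a pseudocount of 1 gave 3, centring 2 and input subtraction 10. For LPS in WT, centring gave 17 members at 1 h (26) and the start window 9 at 18 h (19), and for LPS at 1 h in KO the start window gave 17 (27). For the interaction at 1 h (10 members), the start window gave 1 and centring 6, and at 18 h (2 members) the start window gave 0, a pseudocount of 1 and centring 1 each, and input subtraction 10. The KO input at 18 h holds few regions, so input subtraction is uneven there.

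For H3K27ac in KO against WT at 1 h (13 members), a 1000 bp window gave 5 and KO replicate 1 as the only KO library, chosen after seeing the data, 3. At 18 h (1 member), the 1000 bp window, the window to the gene end and input subtraction gave 2 each, centring and quantile normalization 0 and KO replicate 1 alone 14. For LPS in WT, KO replicate 1 alone gave 21 members at 1 h (13) and the 1000 bp window 10 at 18 h (16). For the interaction at 1 h (0 members), the window to the gene end gave 1, quantile normalization 2 and input subtraction 4, and at 18 h (0 members) KO replicate 1 alone gave 6.

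With 1 replicate left out, the Pol II members called ranged from 0 to 0, 8 to 16 and 1 to 3 in KO against WT at 0, 1 and 18 h, 25 to 26 and 15 to 19 for LPS at 1 and 18 h in WT, 24 to 26 and 15 to 18 in KO, and 2 to 10 and 0 to 2 for the interactions. For H3K27ac the members called ranged, in the same order, from 0 to 1, 0 to 21, 0 to 8, 6 to 22, 7 to 18, 8 to 20, 8 to 19, 0 to 16 and 0 to 3.

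Some directions turned. With input subtracted, Pol II of Elovl6 in KO against WT was -1.11 at 1 h and 1.202 at 18 h, its interaction at 1 h -0.98, and Fdps at 18 h 0.57. In the start window, which takes an even share of each region reaching it and so does not resolve the start within a long region, the interaction of Srebf2 at 1 h was -0.10, and LPS changes at 1 h in WT were -0.075 for Hmgcs1 and -0.015 for Srebf2, in KO -0.056 for Idi1 and -0.11 for Srebf2. There the changes at 18 h were 0.16 for Msmo1 and -0.043 for Hmgcs1 in WT and 0.22 for Msmo1 in KO. Cyp51 after 1 h of LPS in KO was 0.0004 with centring and 0.30 with quantile normalization. H3K27ac of Fdps in KO against WT at 1 h was -0.0115 with KO replicate 1 alone, and Insig2 after 1 h of LPS changed by 0.0196 in WT and 0.12 in KO with the window to the gene end.

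For Pol II, libraries with the same replicate number did not deviate together (r across genes from -0.076 to 0.108, and -0.14 to 0.13 for other pairs). For H3K27ac the range was -0.42 to 0.08 with the same number and -0.32 to 0.41 with different numbers. Some H3K27ac libraries thus did deviate together or in opposite directions, but not by replicate number. With a replicate block, the members called were 0, 17 and 7 for Pol II in KO against WT at 0, 1 and 18 h and 10 and 2 for the interactions, and 0, 13 and 1 for H3K27ac in KO against WT.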
